A study of Mus musculus with 2 samples.

Results

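The nuclear genes for the subunits of respiratory complexes II to V were described in granulocyte-monocyte progenitors (GMP), bone marrow precursors of neutrophils and monocytes. Members were the protein-coding genes whose GENCODE M21 symbol was Sdha to Sdhd, Cyc1 or Cycs, or began with Uqcr, Cox4 to Cox8 or Atp5. The rule matched 50 gene identifiers under 49 symbols, and 49 genes had a row, of 21474 protein-coding genes and 69691 rows in each deposited table. Levels are in TPM, the abundance of transcripts corrected for their length and scaled to the library's total, and counts are the estimated reads assigned to a gene. There was 1 group of 2 libraries of total RNA, each from a pool of 100 cells of male C57BL/6J mice aged 5 to 6 weeks, with spike-in RNA added. The labels name no mutation or treatment and no second condition. The libraries are called replicate 1 and replicate 2. The deposited text files number them as biological replicates, while the labels give the same donor entry for both and do not say whether the pools came from separate animals. The spread between them may therefore be partly or wholly technical, and each SD below covers only these 2 libraries. No test between conditions was possible.

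Oxidative phosphorylation couples the oxidation of nutrients to ATP synthesis in the mitochondrial inner membrane. Complex II (succinate dehydrogenase) passes electrons from succinate to ubiquinone, complex III passes them from ubiquinol to cytochrome c, and complex IV (cytochrome c oxidase) passes them to oxygen. Complexes III and IV pump protons, and complex V (ATP synthase) uses their return to make ATP in its F1 head as the ring of c subunits in its Fo part turns. Complex II is wholly encoded in the nucleus, whereas the core of complexes III and IV and parts of Fo are encoded in mitochondrial DNA. Several complex IV subunits exist in pairs of isoforms, one found in most tissues and the other in heart, muscle, lung or testis.

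Replicate 1 held 40509954 expected counts and replicate 2 held 35675702. The progenitor markers were high, with all 7 of the list detected, among them Mpo, the peroxidase of neutrophil granules, at 6467 ± 191 TPM (SD, n = 2). The 3 T cell markers, the 3 brown fat markers and the 3 lung markers were at 0 counts in both libraries. Of the 5 erythroid, 3 megakaryocyte and 3 macrophage markers, 1, 1 and 2 reached 1 TPM in both libraries, and their summed levels lay between 2.46 and 8.15 TPM per library. In a bulk sample, fewer cells of a type and less RNA per cell cannot be told apart.

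Nearly the whole machinery was expressed, and at levels well above those of most genes. Of the 49 members, 44 reached 1 TPM in both libraries, as did 45.6% of all protein-coding genes. All 40 ubiquitous subunits and both associated genes were among the 44, and the 5 others were isoforms restricted to other tissues. The median member stood at 196 TPM (199 and 179 TPM in the first and second library), against 13.3 TPM for the 10278 protein-coding genes of 1 TPM or more on average. The 40 ubiquitous subunits spanned 16.8-fold, from Cycs at 55.4 ± 5.62 TPM to Atp5b at 930 ± 43.7 TPM, and all 40 lay above that median of expressed genes. Both ends of this span depended on the measure. Cycs with its near-identical copies stood at 271 and 254 TPM, and Atp5b over coding transcripts at 270 and 246 TPM. Together the members held 1.03% of all TPM in replicate 1 and 0.954% in replicate 2. The share was 1.77% on average when the rows Gm42418, Gm26917, Lars2 and Mir6236 and the mitochondrial ribosomal RNAs were left out of the total.

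The complexes stood at different levels. The median over genes was 82.3 TPM for the 4 genes of complex II, 151 TPM for the 9 of complex III, 294 TPM for the 11 of complex IV without restricted isoforms, and 238 TPM for the 17 of complex V. Mean log2(TPM + 1) was 1.39 higher in complex V than in complex II (1.55 in replicate 1 and 1.23 in replicate 2). Between complex IV and complex III the difference was 0.91 (0.96 and 0.85). Both differences were larger than the spread between the libraries. The first of them depended on correction for length: in CPM, each count as a share of all counts in the library with no division by length, complex V was 0.13 higher than complex II on the same log2 scale. With TPM summed only over transcripts annotated as coding it was 1.07. The members of lowest gene TPM in complexes III, IV and V were Cyc1 (49.3 and 64.2 TPM), the genes of the restricted isoforms, and Atp5s (8.12 and 7.82 TPM).

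**Figure D1:**
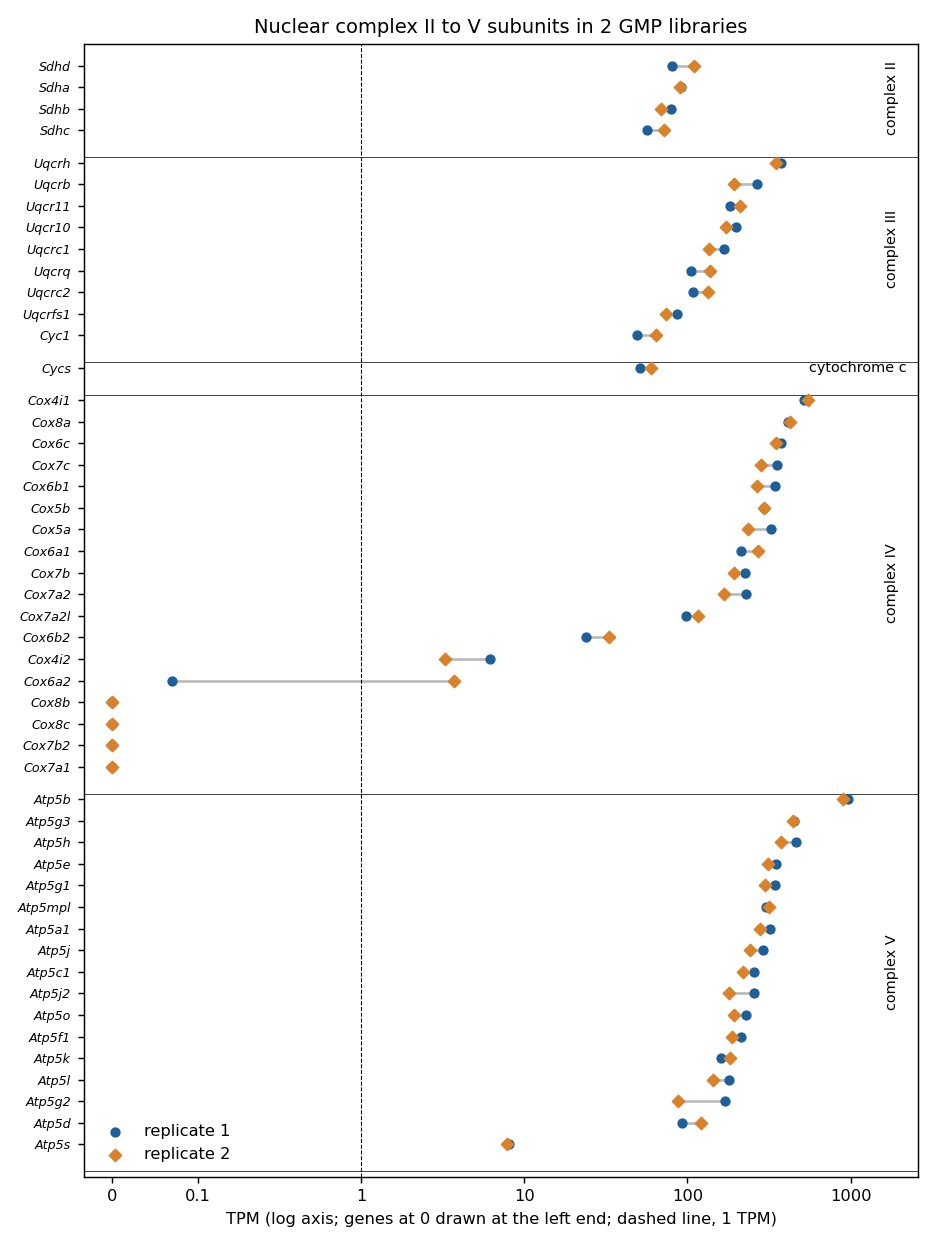
TPM of the 49 members in replicate 1 (circles) and replicate 2 (diamonds) on a log axis, grouped by complex and ordered by mean level, with a dashed line at 1 TPM and genes at 0 drawn at the left end. Nearly all genes lie between about 50 and 1000 TPM with both libraries close together, and the restricted isoforms of complex IV lie apart at the left, with Cox6b2 the highest of them.

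By gene TPM complex II, which has the fewest genes, was the most even of the complexes, its 4 genes spanning 1.48-fold. In CPM its span was wider and close to that of complex IV. Its means then ran from 53.2 to 141, and those of complex IV without restricted isoforms from 71.8 to 197. Sdha, the flavoprotein that oxidises succinate, stood at 91.1 TPM in the first library and 89.6 TPM in the second, the order used for each pair of values below. Sdhb, which carries the iron-sulphur clusters, was at 79.8 and 68.8 TPM. The membrane anchors that bind ubiquinone and haem were at 56.4 and 72.0 TPM for Sdhc and at 80.6 and 110 TPM for Sdhd. Sdhb was lower in replicate 2 and both anchors were higher there, so the order of the 4 genes differed between the libraries. Sdha was nearly level in TPM and slightly higher in replicate 2 in CPM (138 and 144). By counts Sdha, whose transcripts were on average the longest of the 4 (2257 and 2343 bases), ranked 7th of the 49 members. By TPM it ranked 36th.

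In complex III the 2 nuclear subunits that carry cofactors had the lowest gene TPM in both libraries. Cyc1, cytochrome c1, was at 49.3 and 64.2 TPM. Uqcrfs1, the Rieske iron-sulphur protein, was at 86.8 and 74.2 TPM. Uqcrh, the acidic hinge protein that helps cytochrome c dock, was the highest, at 375 and 348 TPM, which was 7.61 and 5.43 times the level of Cyc1. The other small subunits were Uqcrb (266 and 193 TPM), Uqcr11 (182 and 210 TPM), Uqcr10 (199 and 171 TPM) and Uqcrq (106 and 138 TPM). By gene TPM Uqcrh thus stood above every other complex III gene in both libraries, with no overlap, as Cyc1 stood below them. Other measures changed both ends. In CPM Uqcrc1 (96.1 and 113) lay above Uqcrh (93.7 and 87.4), and Uqcrq (19.0 and 34.1) below Cyc1 (37.0 and 48.9). Over coding transcripts Uqcrb was above Uqcrh in replicate 1 (266 against 239 TPM) and Uqcr11 in replicate 2 (202 against 195). On that measure Uqcrq was below Cyc1 in replicate 1 (49.1 against 49.3 TPM) and Uqcrc2 below it in replicate 2 (59.5 against 64.2). The core proteins, Uqcrc1 and Uqcrc2, were at 167 and 135 TPM and at 108 and 133 TPM. For Uqcrc1 the 2 scales went opposite ways: TPM was lower in replicate 2, whereas CPM was higher there (113 against 96.1). The mean effective length of its transcripts, by which the deposited TPM is divided, was 794 bases in replicate 1 and 1135 in replicate 2. Its leading transcript, of 1653 bases, held 35.6% of the gene's TPM in replicate 1 and 62.7% in replicate 2.

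Cycs, the soluble electron carrier between complexes III and IV, was at 51.5 and 59.4 TPM on its own row, close to Cyc1, which was lower in replicate 1 and higher in replicate 2. Its coding sequence has near-identical copies elsewhere in the genome, and these rows held counts of their own. Gm10053, an intronless gene annotated as protein-coding on chromosome 19 (chr19:24875686-24876631), holds the whole 315-base coding sequence of Cycs without a difference and matched Cycs over 946 bases with 1 mismatch. It was assigned 3355 counts in replicate 1 and 2884 in replicate 2, or 145 and 139 TPM. Gm10108, a processed pseudogene (a copy of a spliced transcript inserted in the genome) on chromosome 5, was assigned 351 and 238 counts, or 74.4 and 55.5 TPM, and Cycs itself had 4264 and 3275 counts. With these rows added, cytochrome c stood at 271 and 254 TPM. The first 90 bases of the coding sequence show how few bases tell the rows apart. They are given 5′ to 3′ from GENCODE M21 transcripts on GRCm38, with capitals where a copy differs from Cycs (Cycs at chr6:50565571-50565660, minus strand, Gm10053 at chr19:24875753-24875842, plus strand, and Gm10108 at chr5:13121677-13121766, minus strand):
Cycs: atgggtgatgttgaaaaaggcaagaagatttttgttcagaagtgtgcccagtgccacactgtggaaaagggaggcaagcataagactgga
Gm10053: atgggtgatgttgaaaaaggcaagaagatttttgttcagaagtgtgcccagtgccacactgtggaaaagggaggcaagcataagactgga
Gm10108: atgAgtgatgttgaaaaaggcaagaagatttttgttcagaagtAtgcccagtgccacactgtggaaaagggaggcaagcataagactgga
The testis form of cytochrome c, Cyct, had 0 counts in both libraries.

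Complex IV had the highest median of the complexes once its restricted isoforms were set aside. Cox4i1, the largest nuclear subunit and the site of ATP regulation, was the highest, at 518 and 545 TPM. Cox8a (413 and 427 TPM), Cox6c (373 and 347 TPM) and Cox7c (352 and 282 TPM) followed, all small membrane subunits. Cox5a and Cox5b, on the matrix side, were at 324 and 235 TPM and at 293 and 296 TPM. Cox6b1, which faces the intermembrane space, was at 344 and 265 TPM. Cox7b (224 and 192 TPM) and Cox7a2 (229 and 168 TPM) were the lowest ubiquitous subunits by mean. Cox6a1 (213 and 272 TPM) was the lowest in replicate 1 and stood above 4 others in replicate 2. Cox7a2l, a Cox7a relative that links complexes III and IV into supercomplexes, was at 98.3 and 116 TPM. By gene TPM it was below all 10 ubiquitous subunits in both libraries, but not on other measures. In CPM Cox7a2l (65.4 and 78.2) lay above Cox6a1 in replicate 1 (63.4) and above Cox7a2, among others, in replicate 2 (73.8). Over coding transcripts Cox7b (63.6 and 70.7 TPM) lay below it in both libraries. Ndufa4, formerly counted in complex I and now also placed in complex IV, was at 433 and 293 TPM.

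The isoforms restricted to other tissues were absent or low, with 1 exception. Cox7a1 (heart and muscle), Cox8b (heart and muscle), Cox7b2 (testis) and Cox8c (testis) had 0 counts in both libraries. A count of 0 allows up to 3 counts, or 0.0741 CPM in replicate 1 and 0.0841 CPM in replicate 2. Against that limit, taken per library, Cox7a2 was at least 460-fold higher than Cox7a1 in replicate 1 and at least 306-fold higher in replicate 2. Cox8a was at least 822-fold and 769-fold higher than Cox8b, and at least 1278-fold and 1190-fold higher than Cox8c. Cox7b was at least 836-fold and 644-fold higher than Cox7b2. Each ubiquitous partner of these 4 genes thus stood far above the counting limit. Cox4i2, the lung and hypoxia isoform, was at 6.19 and 3.28 TPM (103 and 49 counts), and Cox4i1 was 83.7 and 166 times higher. Over the 7 pairs, the median difference in log2(TPM + 1) between ubiquitous and restricted isoform was 7.81 in replicate 1 and 7.40 in replicate 2. In the 4 pairs with a restricted gene at 0, the difference is set by the ubiquitous gene and the added 1. Both medians came from such pairs (Cox7b with Cox7b2, then Cox7a2 with Cox7a1), and Cox8a entered 2 pairs.

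Cox6b2, the testis form of the subunit Cox6b, was the highest restricted isoform, at 24.0 and 33.3 TPM (261 and 323 counts). It made up 6.54% of the summed Cox6b1 and Cox6b2 TPM in replicate 1 and 11.2% in replicate 2. The counts lay far above the limit for 0, with 95% Poisson intervals of 230 to 295 and 289 to 360, which cover counting error only. Other testis genes were near 0: Prm1, Prm2, Tnp1 and Tnp2, which package sperm DNA, had 0 counts in both libraries, and Ldhc had 33 counts in replicate 1 and 0 in replicate 2. The annotated coding transcripts of Cox6b2 held 82.2% of its TPM in replicate 1 and 53.2% in replicate 2. Coding bases of Cox6b1 and Cox6b2 were 64.2% identical where aligned, with no shared run over 14 bases. Cox6a2, the heart and muscle form of Cox6a, had 1 count in replicate 1 (95% Poisson interval 0.0253 to 5.57) and 49 in replicate 2 (36.3 to 64.8). Among the other striated muscle genes, Tnni3 had 0 and 74 counts, Ckm 0 and 28, and Mylpf 42 and 28. The 3 remaining heart genes (Myh6, Tnnt2 and Nppa) and the 3 remaining skeletal muscle genes (Acta1, Tnnc2 and Myh4) had 0 counts in both. Summed over the list, heart genes were at 0 and 8.43 TPM and skeletal muscle genes at 12.2 and 5.08 TPM. Whether RNA of muscle cells had a part in the Cox6a2 counts was not tested. Itgad, which overlaps Cox6a2 on the opposite strand, had 0 and 22 counts.

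**Figure D2:**
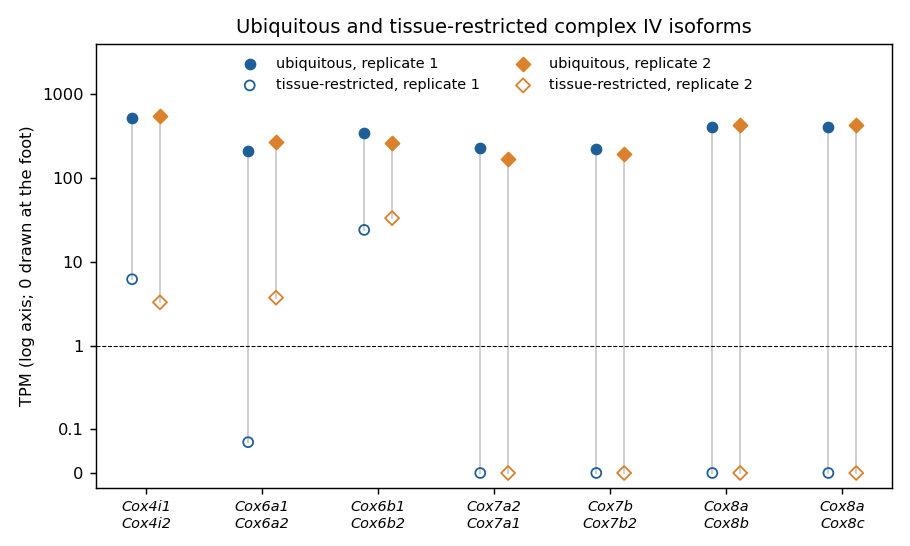
TPM of the ubiquitous (filled) and tissue-restricted (open) gene of 7 complex IV pairs in replicate 1 (circles) and replicate 2 (diamonds), on a log axis with 0 at the foot and a dashed line at 1 TPM. Restricted genes of 4 pairs are at 0 in both libraries, Cox6b2 comes closest to its partner, and Cox6a2 is the pair in which the libraries differ most.

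Complex V held the member of highest TPM, Atp5b, the catalytic beta subunit of F1, at 961 and 899 TPM. Atp5a1, the alpha subunit that alternates with beta in the head, was at 319 and 279 TPM, so that Atp5b was 3.01 and 3.23 times higher. The central stalk genes were Atp5c1 (gamma) at 255 and 220 TPM, Atp5d (delta) at 92.1 and 122 TPM and Atp5e (epsilon) at 351 and 312 TPM. By gene TPM Atp5d was the lowest F1 gene in both libraries. In the assembled enzyme alpha and beta outnumber gamma, delta and epsilon. By gene TPM alpha stood 1.25 and 1.27 times above gamma but below epsilon. These orders depended on correction for length. In CPM alpha (470 and 407) lay above gamma (185 and 163) and epsilon (69.1 and 60.9). On that scale epsilon was below delta (69.1) in replicate 2.

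The excess of Atp5b over Atp5a1 was not seen on every scale. In CPM the ratio was 1.16 on average. Of the TPM of Atp5b, 57.5% and 56.7% lay on a 478-base transcript annotated as non-coding, Atp5b-206, and 28.1% and 27.4% on the full-length coding transcript of 1916 bases. In counts the order was the other way round: the short transcript had 5160 and 4293 counts and the coding one 13939 and 11340. Over coding transcripts alone Atp5b was at 270 and 246 TPM and Atp5a1 at 267 and 224 TPM, a ratio of 1.01 and 1.10. On that measure Atp5b ranked 12th and Atp5g3 1st of the 49 members.

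By gene TPM the stator and membrane members of complex V, subunit c aside, covered a narrower range than F1. Over coding transcripts alone their means ran from 38.1 TPM (Atp5f1) to 336 TPM (Atp5h), a wider range. Those of F1 then ran from 107 TPM (Atp5d) to 330 TPM (Atp5e). Atp5h (subunit d) was at 464 and 376 TPM, Atp5o (the subunit that joins the stator to the head) at 229 and 194 TPM, Atp5f1 (subunit b) at 212 and 187 TPM and Atp5j (factor 6) at 289 and 243 TPM. Among the small membrane subunits, Atp5mpl was at 301 and 317 TPM, Atp5j2 (f) at 254 and 179 TPM, Atp5k (e) at 160 and 183 TPM and Atp5l (g) at 179 and 143 TPM. Atp5s, an associated protein known as factor B, stood far below all subunits in both libraries. Usmg5, a further ATP synthase subunit whose symbol the rule does not match, was at 423 and 394 TPM. Atpif1, which inhibits the enzyme when it runs in reverse, was at 410 and 376 TPM.

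Subunit c, which forms the rotating ring, is encoded by 3 genes that give the same mature protein with different targeting peptides. Atp5g3 was at 452 and 442 TPM, Atp5g1 at 344 and 297 TPM and Atp5g2 at 170 and 87.5 TPM. Atp5g3 therefore held 46.8% and 53.5% of their sum and Atp5g2 17.6% and 10.6%. Atp5g2 was also the member of 10 TPM or more whose libraries lay furthest apart, 1.94-fold on the log2(TPM + 1) scale. A pseudogene on chromosome 7, Gm10175 (chr7:23946646-23947290, minus strand), is identical to the Atp5g2 transcript over all 645 of its bases, the 438-base coding sequence included. Its row was assigned 3954 and 3650 counts, which was 58.1% and 73.8% of the counts of Atp5g2 and its copies. With the copy added, Atp5g2 stood at 484 and 410 TPM, a spread of 1.18-fold. Its share of subunit c TPM was then 36.3 ± 1.41%, against 36.5 ± 2.30% for Atp5g3 and 27.2 ± 0.89% for Atp5g1 with its own copies. Read on member rows Atp5g2 was the lowest of the 3 genes, and with copies it was above Atp5g1 in both libraries, above Atp5g3 in replicate 1 and below it in replicate 2. The last 90 coding bases show how far the rows can be told apart by sequence. Those of Atp5g1 (chr11:96073107-96073196) and Atp5g3 (chr2:73908596-73908685) differ from Atp5g2 (chr15:102663017-102663106) at 12 and 23 bases, in capitals, and Gm10175 (chr7:23946795-23946884) at none, all on the minus strand of GRCm38:
Atp5g1: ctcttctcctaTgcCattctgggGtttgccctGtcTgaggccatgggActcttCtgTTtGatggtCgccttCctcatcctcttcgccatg
Atp5g3: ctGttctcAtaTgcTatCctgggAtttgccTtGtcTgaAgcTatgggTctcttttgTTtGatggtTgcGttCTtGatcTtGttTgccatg
Atp5g2: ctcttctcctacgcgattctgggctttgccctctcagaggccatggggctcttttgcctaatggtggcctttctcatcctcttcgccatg
Gm10175: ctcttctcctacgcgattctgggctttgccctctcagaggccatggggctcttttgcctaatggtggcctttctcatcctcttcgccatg

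Atp5l also had a copy that took more counts than its own row. Its whole 309-base coding sequence is the sequence of Gm10221, a processed pseudogene (chr5:24581554-24581862, minus strand), which was assigned 2685 and 1838 counts, or 348 and 264 TPM. Atp5l itself had 1849 and 1331 counts. With copies added it stood at 528 and 408 TPM. Unlike for Atp5g2, the spread between the libraries did not narrow, at 1.25-fold on its own row and 1.30-fold with copies, and the copies held 59.2% and 58.0% of the counts. The first 90 coding bases are the same in both, here from Atp5l on chromosome 9 (spanning 2 exons, chr9:44914774-44920661, minus strand) and from Gm10221 (chr5:24581773-24581862):
Atp5l: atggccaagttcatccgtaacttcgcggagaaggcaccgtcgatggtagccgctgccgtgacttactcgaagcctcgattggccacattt
Gm10221: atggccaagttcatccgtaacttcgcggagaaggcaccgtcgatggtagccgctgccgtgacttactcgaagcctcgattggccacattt

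Counts on copies lay mostly beside few members. Of the 49, 23 had at least 1 pseudogene with a row in the deposited tables and 90% identity over 50% of the shorter sequence. There were 58 such copies in all, and 19 had counts. A further 24 pseudogenes in M21 met both marks but had no row and were not analysed here, among them the only one of Cox6a1. In 2 members, Atp5g2 and Atp5l, these pseudogenes held over 10% of the summed counts of gene and copies. They held 4.03% to 7.61% for Cox7c and Cycs and 1.94% to 2.66% for Atp5g1. With its protein-coding copy Gm10053 included, the copies of Cycs held 46.5% and 48.8%. The deposited posterior SD of the count, a measure of how uncertain the assignment of reads was, was 0 in both libraries for 35 members, the 4 without counts included. It was highest in proportion for Atp5l (3.79% and 5.29% of its count) and Atp5g2 (2.83% and 4.53%), both small beside the counts on their copies. How many of the reads on a copy came from the member was not tested.

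**Figure D3:**
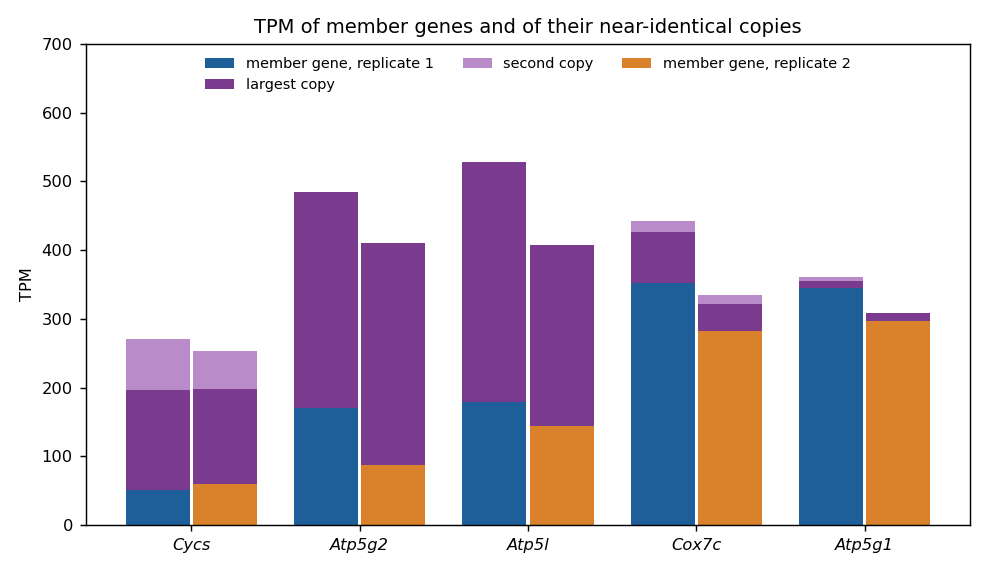
TPM of 5 members (blue, replicate 1, and orange, replicate 2) with the TPM of their 2 copies of highest level stacked on top (dark and light purple). The copies hold more TPM than the member for Cycs, Atp5g2 and Atp5l in both libraries. They hold less than the member for Cox7c (91.1 and 51.8 TPM beside 352 and 282) and a small part for Atp5g1 (16.9 and 11.0 TPM beside 344 and 297).

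The transcripts behind the gene levels were mostly coding. Of the 45 members of 1 TPM or more on average, 34 had 2 or more transcripts, and 32 of these had the same leading transcript in both libraries. Sdhc and Uqcrq were the 2 exceptions. The leading transcript held a median of 83.1% of the gene's TPM in replicate 1 and 80.8% in replicate 2. Transcripts annotated as coding in M21 held 79.3% and 78.7% of the summed TPM of these members and 85.7% and 85.5% of their counts. In 5 members coding transcripts held under 50% of TPM in both libraries. Besides Atp5b, these were Atp5f1 (17.0% and 21.3%), Atp5j (17.0% and 29.6%), Cox7b (28.4% and 36.9%) and Cox5b (40.8% and 33.1%). The leading transcript of Atp5f1 was a nonsense-mediated decay transcript of 1311 bases with 80.2% and 74.6% of its TPM. In Atp5j and Cox7b it was a retained-intron transcript of 526 bases in each case, with 82.5% and 65.8% and with 71.6% and 63.1%. In Cox5b it was a non-coding transcript of 362 bases, with 59.0% and 64.9%. By coding transcripts alone Atp5f1, subunit b of the stator, was at 36.2 and 39.9 TPM, 41st of the 49 members, whereas its gene level ranked 23rd.

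**Figure D4:**
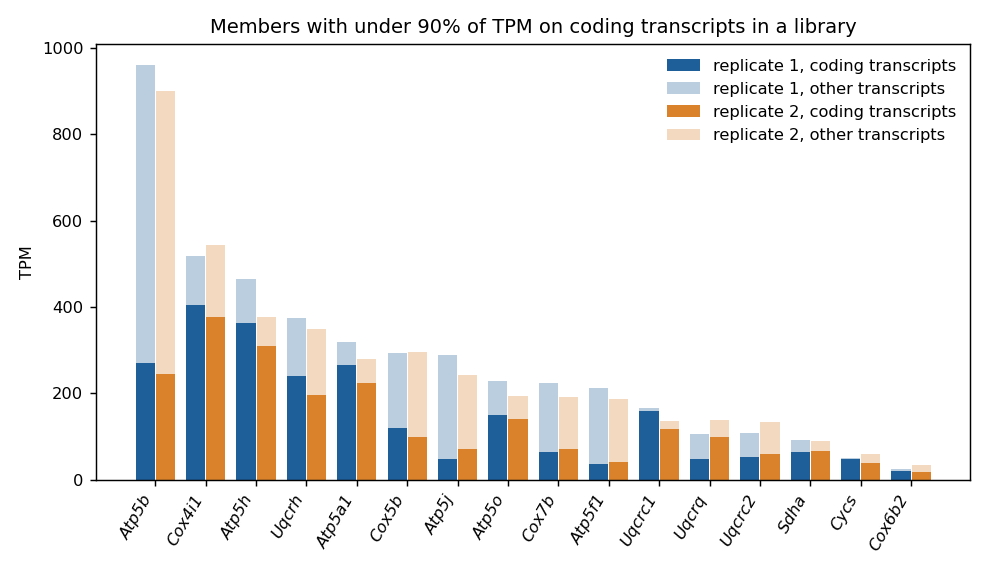
TPM on transcripts annotated as coding (solid) and on other transcripts (pale) for the 16 members with under 90% on coding transcripts in either library, replicate 1 in blue and replicate 2 in orange. For Atp5b, Cox5b, Atp5j, Cox7b and Atp5f1 the pale part is the larger in both libraries.

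The libraries were close for most members. Of the 42 members of 10 TPM or more, 41 lay within 1.5-fold on the log2(TPM + 1) scale, which understates the difference of low genes, and 86.8% of all protein-coding genes of that level did. Atp5g2 was the 1 member outside, followed by Atp5j2 (1.42-fold), Cox5a (1.37-fold), Uqcrb (1.37-fold) and Cox6b2 (1.37-fold). Of these, Cox6b2 was higher in replicate 2 and the others in replicate 1. More members were higher in replicate 1 than in replicate 2, 26 of 42, where 45.6% of all protein-coding genes of 10 TPM or more were. The log2 ratio of the second library to the first had a median of -0.14 over these members, against 0.03 for the 6095 protein-coding genes of that level. Within complex V 13 of 16 were higher in replicate 1, and within complex II 2 of 4. By GC content of the leading transcript, 5 of the 21 members of lower GC (39.5% to 50.6%) and 11 of the 21 of higher GC (51.0% to 61.1%) were higher in replicate 2. Spearman's rho between GC and ratio was 0.25 across the 42 members, -0.068 across the 16 of complex V and 0.13 across 6050 protein-coding genes, as a description over genes that share the same pair of libraries. The part of GC content in the differences was not tested.

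Mitochondrially encoded partners were mostly far above the nuclear members. In replicate 1 all 6 exceeded Atp5b in TPM, and in replicate 2 mt-Co2 and mt-Co3 lay below it. The place of mt-Atp8 depended on correction for length. In counts mt-Atp8 (10128 and 10054) lay below Atp5b (21076 and 17477) in both libraries. For complex V, mt-Atp6 (subunit a of Fo) was at 4582 and 4502 TPM and mt-Atp8 at 5983 and 6423 TPM. For complex III, mt-Cytb was at 2424 and 2445 TPM. For complex IV, mt-Co1, which holds the site of oxygen reduction, was at 4990 and 5066 TPM, mt-Co2 at 1517 and 885 TPM and mt-Co3 at 3192 and 463 TPM. The last 2 differed between the libraries, whereas the other 4 lay within 1.1-fold. Reads of mitochondrial genes can also fall on nuclear copies of mitochondrial DNA, whose part here was not tested. Total RNA is not selected for polyadenylated transcripts, and these levels are set beside nuclear mRNA with that limit.

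Carriers and complex I subunits had medians below that of the members, and assembly factors were lower still. Of the 13 further partners with a row, 11 reached 1 TPM in both libraries. They were led by Slc25a5, the adenine nucleotide carrier that exports ATP, at 499 and 449 TPM, then Usmg5 and Atpif1, and the median over all 13 was 87.8 TPM. The lowest of the 11 was Higd1a, a supercomplex-associated protein, at 15.5 and 19.0 TPM. Slc25a4, the heart and muscle relative of Slc25a5, was at 34.3 and 50.6 TPM, and Slc25a31, the testis relative, had 0 counts in both libraries, as Cyct had. Complex I was represented by the 37 genes whose symbol is Nduf, then a, b, c, s or v, then a digit. Ndufa4 (433 and 293 TPM) and its relative Ndufa4l2 (0.55 and 0 TPM) were left in. The median of the 37 was 86.9 TPM, below the 210 TPM of the 42 members other than restricted isoforms. The 37 assembly factors had a median of 13.98 TPM, and 36 reached 1 TPM in both libraries. The highest were Uqcc2 (67.6 and 94.4 TPM), a complex III factor, and Cox20 (62.5 and 78.4 TPM) and Cox17 (80.1 and 59.7 TPM), which serve Cox2 maturation and copper delivery to complex IV. Sdhaf3, a complex II factor, was the lowest detected by mean (2.08 and 2.16 TPM), though Coa4 was lower in replicate 2 (3.35 and 2.1 TPM). Pet117 had 0 counts in both libraries. The assembly median lay near the 13.3 TPM of expressed protein-coding genes.

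Among 13 regulators known to act on respiratory genes, 12 reached 1 TPM in both libraries and 1 did not. Pprc1, a coactivator of the PGC-1 family, was the highest, at 43.8 and 50.9 TPM, followed by Yy1 (34.6 and 35.2 TPM) and Tfam (34.3 and 25.2 TPM), the mitochondrial transcription factor. Ppargc1a, the PGC-1 alpha coactivator of muscle and brown fat, had 0 counts in both libraries. Ppargc1b was at 2.19 and 5.11 TPM and Esrra, the nuclear receptor that PGC-1 proteins activate, at 3.09 and 12.5 TPM. Nrf1 was at 21.25 and 21.9 TPM, and Gabpa, the ETS factor also called nuclear respiratory factor 2, at 33.8 and 21.99 TPM. The Gabpa gene overlaps Atp5j on the opposite strand over 701 bases. Whether the counting used strand is not given in the sources used here, so reads of this overlap cannot be assigned with certainty. The same limit holds for Atp5f1 with Wdr77, Cox6c with Vps13b and Cox4i1 with Emc8. Gm20388, a read-through gene on the same strand as Cox4i1, had 1269 and 365 counts.

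**Figure D5:**
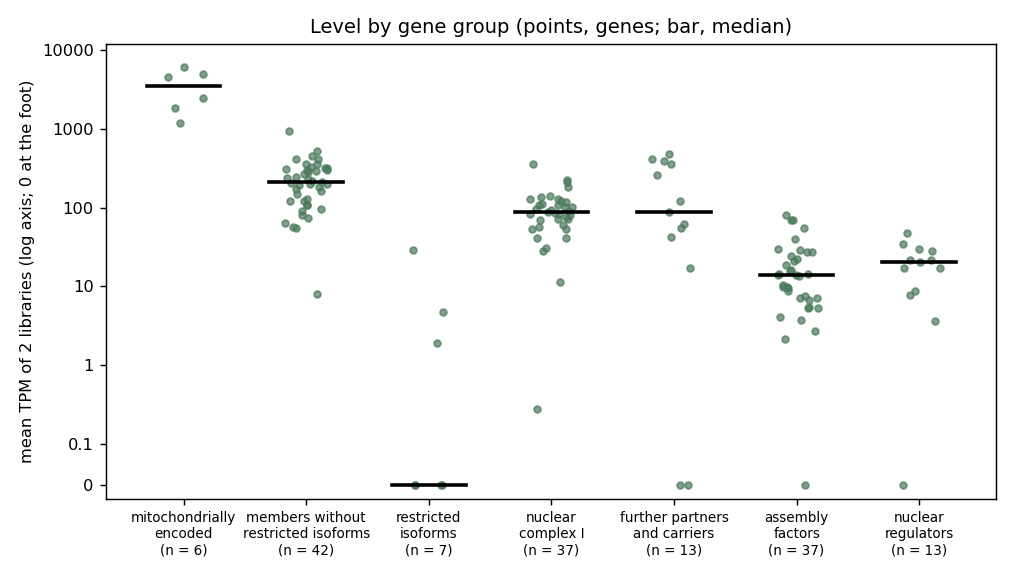
Mean TPM of each gene (points) and group median (bars) on a log axis with 0 at the foot, for the mitochondrially encoded partners, the members without and with tissue restriction, nuclear complex I, further partners, assembly factors and regulators. The medians fall from 3488 TPM for the mitochondrially encoded genes through 210 TPM for the members without restricted isoforms to 13.98 TPM for the assembly factors, and the restricted isoforms have a median of 0.

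The RefSeq table (GRCm38.p6, 250 bases before to 50 after the start) held 35 of the 49 members by symbol. Each motif was searched as letters on both strands. The core bound by NRF1, GCGCANGCG, occurred in 13 of 35 members (37.1%) and in 7.03% of the 27025 genes in the table. The ETS core CCGGAAGT occurred in 4 members (11.4%, against 4.31%), the YY1 core AAGATGGC in 2 (5.71%, against 3.19%) and the ERR alpha element TCAAGGTCA in 2 (5.71%, against 0.466%). CCAAT occurred in 20 (57.1%, against 41.1%). None of the 4 restricted isoforms matched (Cox6b2, Cox7a1, Cox7b2 and Cox8b) held any of the first 4 motifs. Any of the first 3 occurred in only 13.2% of all genes, so 4 genes are too few to set the restricted isoforms apart. CCAAT was in 3 of these 4 and in 17 of the 31 other members. Base composition differed too: the ratio of observed to expected CpG had a median of 0.842 in the 31 other members, 0.382 in the 4 restricted isoforms and 0.390 in all genes. Among promoters with a ratio of at least 0.6, the NRF1 core was in 13 of 28 members (46.4%) and in 17.3% of 9598 genes. On the same promoters the ETS core was in 4 members (14.3%) and in 9.22% of genes. The YY1 core was in 1 member (3.57%) and in 5.62% of genes. For YY1 the order thus turned on 1 member, Atp5j2, whose ratio of 0.584 lay just below the mark. These counts describe letters, not binding.

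NRF1 matches were found in members of every complex. Those with a match were Sdha, Sdhd, Uqcrc1, Uqcr11, Cycs, Cox6a1, Atp5c1, Atp5g2, Atp5g3, Atp5h, Atp5k, Atp5l and Atp5o, with means from 55.4 to 447 TPM. Atp5b, the member of highest TPM, held none, and neither did Cox8a, which held 2 ETS matches. Sequence upstream of the annotated gene is shown for 1 member of each complex and for Cycs, with NRF1 and ETS matches in capitals, all on the minus strand. Sdha (chr13:74350281-74350390) shows 2 of its 3 NRF1 matches, Uqcr11 (chr10:80406831-80406971) an ETS match, and Cycs (chr6:50566570-50566719), Cox6a1 (chr5:115348982-115349108) and Atp5h (chr11:115419963-115420069) 1 NRF1 match each:
Sdha: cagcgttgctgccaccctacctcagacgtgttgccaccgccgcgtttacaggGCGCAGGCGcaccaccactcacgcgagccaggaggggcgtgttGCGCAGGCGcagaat
Uqcr11: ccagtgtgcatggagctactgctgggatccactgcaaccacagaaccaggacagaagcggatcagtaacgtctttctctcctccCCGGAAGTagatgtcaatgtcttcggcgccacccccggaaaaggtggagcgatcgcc
Cycs: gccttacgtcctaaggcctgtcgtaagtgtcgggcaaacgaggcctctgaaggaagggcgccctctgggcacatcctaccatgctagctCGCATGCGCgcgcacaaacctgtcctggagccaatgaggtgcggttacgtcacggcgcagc
Cox6a1: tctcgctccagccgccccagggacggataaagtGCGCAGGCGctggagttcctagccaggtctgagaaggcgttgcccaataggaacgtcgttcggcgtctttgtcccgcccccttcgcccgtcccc
Atp5h: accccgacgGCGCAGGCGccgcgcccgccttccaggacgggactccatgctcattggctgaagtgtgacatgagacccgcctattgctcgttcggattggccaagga

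Coding sequences within the isoform pairs were far less alike than those of members and their copies. Identity over aligned bases ran from 55.7% for Cox8a and Cox8b to 69.0% for Cox4i1 and Cox4i2, with no shared run over 14 bases in any of the 7 pairs. Among the subunit c genes it was 74.6% for Atp5g1 and Atp5g2, 71.1% for Atp5g2 and Atp5g3 and 70.7% for Atp5g1 and Atp5g3, with a longest shared run of 20 bases.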

How the data were processed

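Per the files deposited with each library, values come from reads on mm10 with annotation M4. Neither aligner, quantifier nor use of strand is named: not given in the sources used here. The authors deposited expected counts (estimated reads per gene), TPM scaled over all rows, the percent of each gene's TPM that a transcript holds, and FPKM, which was read but not reported. Symbols, types and sequences came from GENCODE M21 by Ensembl identifier. The second Atp5o identifier had no row. A mean is given with its SD over 2 libraries, and log values are log2(TPM + 1). CPM divides counts by the library's total over all rows. Copies were found with BLAST 2.17.0. TMM factors (edgeR 4.0.16) and DESeq2 1.42.0 size factors, from counts rounded to whole numbers, were alternatives, and scaling was tested on simulated data. Poisson intervals are exact. Calculations ran in Python 3.11.15 with pandas 2.3.3, scipy 1.17.1, numpy 2.4.6 and Biopython 1.88, and plots in matplotlib 3.10.9. The members and lists were chosen with earlier results of these data known. Every member is named. Values are given for catalytic subunits, the 4 highest and 4 lowest of each complex, isoform pairs, subunit c genes, the 5 members furthest apart between libraries, and the 3 highest and the lowest of each partner list. Printed sequences, Gm rows and overlapping genes were chosen after their values were seen. Isoforms were compared by coding bases, since no protein table was used.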

Additional observations from a re-analysis of the deposited data

How the results depend on the processing

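Alternatives on coding transcripts, on all copies and without associated genes were chosen after seeing the data. Of 65 values under alternatives, 47 differed from the reported value by less than the spread between the libraries, or for counts by less than 1.5 times, and 18 moved. The 47 overstate how stable the results are. A mean of 2 values always lies within their SD of each, so leaving out a replicate could hardly move a mean. Some other settings left the compared genes unchanged, such as the detection mark for the complexes. No difference changed sign. In CPM, the difference of complex V from complex II was 0.13 (reported 1.39), that of complex IV from complex III 0.69 (0.91), the isoform difference 6.32 (7.62) and the median member 73.1 (196 TPM). Without the repeat-derived rows and mitochondrial ribosomal RNA the median was 348 TPM and the members' share 1.77%, and of expected counts the share was 0.432%. Over coding transcripts the median was 139 TPM, the complex V difference 1.07 and the isoform difference 6.75. Without associated genes, complex V differed by 1.68 and complex IV by 1.04. A pseudocount of 0.1 raised the isoform difference to 10.94, since 4 restricted genes were at 0. With pseudogene copies the share of Atp5g3 was 36.5% (50.1%) and that of Atp5g2 36.3% (14.1%), which put Atp5g2 above Atp5g1 (27.2%) where its own row lay below (35.8%). Leaving out a replicate gave 179 to 199 TPM for the median, 0.954% to 1.03% for the share, 1.23 to 1.55 and 0.85 to 0.96 for the complexes, 7.40 to 7.81 for the isoforms, 46.8% to 53.5% and 10.6% to 17.6% for Atp5g3 and Atp5g2, and 44 to 45 members detected. The Atp5b to Atp5a1 ratio was 1.16 in CPM and 1.06 over coding transcripts (3.12). By TMM or DESeq2 factors 39 of 42 members lay within 1.5-fold, Atp5j2 and Uqcrq joining Atp5g2. No paired analysis was possible because there was only 1 group. With 2 libraries, the precision of each SD is low.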
